A study of Homo sapiens with 2 samples.

Results

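The proteasome genes were examined in KYSE150, a human cell line grown from an esophageal squamous cell carcinoma. The family was chosen with earlier results of these data known. Its members were picked by symbol: the letters PSM, a letter from A to G and a digit, with pseudogenes and antisense RNAs left out. This gave 46 of the 22465 genes with a row of their own on the array. One of the 46, PSMC3IP, carries the pattern in its symbol but encodes a recombination protein, and its row read 9.09 on both arrays. The other 45 encode proteasome subunits, activators, an inhibitor and assembly chaperones and are described here. PSMC5, PSMD7 and PSMD13 were not analysed here.

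The control cells carried a scrambled short hairpin RNA (shscramble) and the knockdown cells a hairpin against the long non-coding RNA lncRNA625, both delivered by lentivirus. Infected cells were selected with puromycin, and all cells grew in RPMI-1640 with fetal bovine serum. Several clones were screened by RT-PCR for reduced lncRNA625, and the sources do not say how many clones the hybridized RNA came from. The description of the knockdown sample speaks of siRNA, whereas the series design and the methods speak of a stable hairpin. Each group held 1 Human Transcriptome Array 2.0. No value therefore has a replicate error, no test was made, and every difference below is one array minus another.

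The proteasome degrades proteins marked with ubiquitin. Its core particle, the 20S, is a barrel of alpha and beta rings with catalytic sites on certain beta subunits, and the 19S regulatory particle binds ubiquitin chains and feeds unfolded proteins into the core with a ring of ATPases. Interferon induces an alternative set of catalytic subunits, PSMB8, PSMB9 and PSMB10, and the activator PA28, built from PSME1 and PSME2, which together favour peptides for MHC class I. The complex with these catalytic subunits is called the immunoproteasome.

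Values are deposited log2 signals, and differences are knockdown minus control on that scale. Over all genes, 11323 had a mean of both arrays at or above 4.97, the median of rows with a single gene symbol, and this is called the signal limit. Of these genes, 76% showed the identical value on either array, so an equal pair is not a measured equality. Genes higher on the knockdown array made up 11.8% and genes lower 12.1%. Beyond 1.5-fold, which is 0.58 on the log2 scale, the shares were 1.11% higher and 0.477% lower. Background probe rows reached 6.003, so values near or below that level are uncertain in size. No row was tied to lncRNA625, and the knockdown itself was not checked here. Of 7 listed epithelial and squamous genes, KRT6A and TP63 had no row of their own. For the other 5, the control array read 13.86 for CDH1, 12.14 for EPCAM, 16.50 for KRT5 and 7.87 for SOX2. KRT14 read 5.63, within the range of the background rows. Of these 5, 3 had different values on the knockdown array, with differences of 0.58 for CDH1, 0.53 for SOX2 and -0.39 for KRT5, each under 1.5-fold. In size, those of CDH1 and SOX2 exceed the differences of PSMB8, PSMB9, PSME2 and PSMC4, and their part in the results was not tested.

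Of the inducible subunits and PA28, 4 of 5 had higher values on the knockdown array, 1 of them past 1.5-fold. The shares for all genes past the signal limit were 11.8% and 1.11%. In the deposited values no other proteasome gene had a higher value, which depends on exactly equal pairs. After a second quantile normalization, 9 proteasome genes had higher values, and in 4 the difference exceeded 0.1. Of PSMB8, PSMB9, PSMB10, PSME1 and PSME2, PSMB10 was the 1 equal gene and 0 were lower, with a median difference of 0.41. Of the other 37 proteasome genes past the signal limit, 0 were higher, 17 were equal and 20 were lower, with a median of -0.03. The median over all 11323 genes was 0. All 42 proteasome genes past the limit on the mean also reached it on each array, so none entered through a high value on one side. PSMA8, PSMB11 and PSMG4 stayed below it. The RNA came from cells in bulk, in which fewer cells of a kind and less RNA per cell cannot be told apart.

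**Figure D1:**
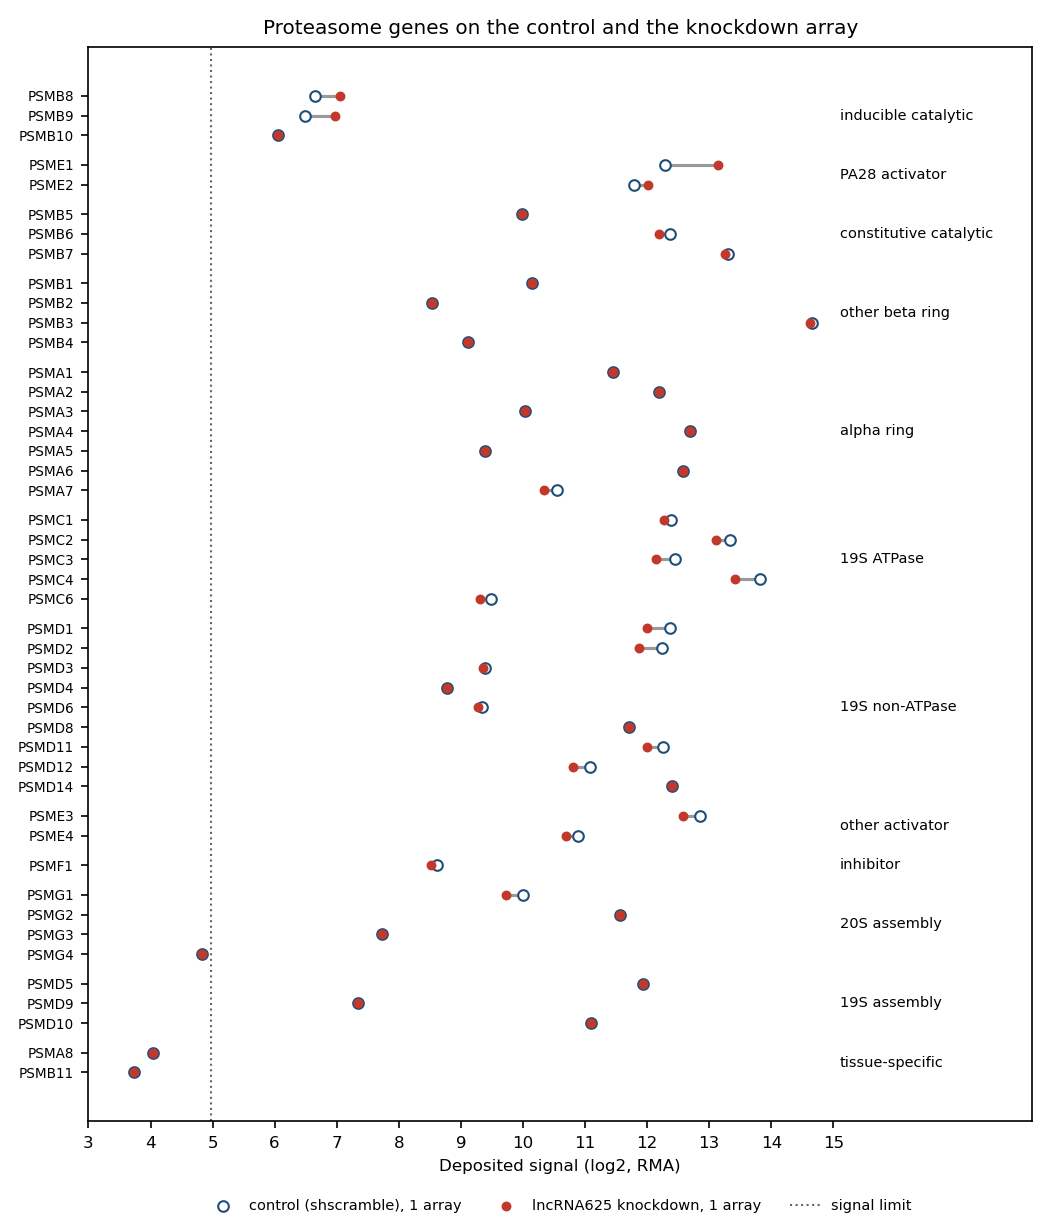
Deposited log2 signal (horizontal axis) of each of the 45 proteasome genes on the control array (open circles) and the knockdown array (filled circles), grouped by role, with 1 array per group and no error bars. The knockdown point lies to the right only for PSMB8, PSMB9, PSME1 and PSME2. PSME1 has the widest gap, from 12.29 to 13.15.

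PSME1, the alpha subunit of PA28, read 12.29 in control cells and 13.15 in knockdown cells. The difference of 0.86, or 1.81-fold, placed it 53rd from the top of 11323 genes, and it was the only proteasome gene past 1.5-fold in either direction. PSME2, the beta subunit with which PSME1 forms a ring, read 11.79 and 12.01, a difference of 0.22. A pseudogene of PSME2 with a row of its own, PSME2P2, read 11.59 and 11.75, and how far its probes are shared with PSME2 was not tested.

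PSMB9, the inducible counterpart of PSMB6, read 6.49 in control and 6.98 in knockdown cells, a difference of 0.49 or 1.40-fold. PSMB8, the inducible counterpart of PSMB5, read 6.65 and 7.06 in the same order, a difference of 0.41 or 1.33-fold. Both differences stayed under the 1.5-fold limit. PSMB10, the inducible counterpart of PSMB7, read 6.05 on both arrays, just above the highest background probe row.

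PSMB8 and PSMB9 lie in the MHC region, and each had 8 rows, 7 of them on alternative haplotypes of that region. The row with the highest mean was on such a haplotype for both genes. On the primary chromosome, PSMB8 read 6.43 and 6.83, and PSMB9 read 5.997 and 6.49. The control value of that PSMB9 row lay within the range of the background rows. Over the 8 rows of each gene the differences ran from 0.40 to 0.41 for PSMB8 and from 0.40 to 0.49 for PSMB9. The rows of a gene were read on the same RNA, can share probes and are not replicates.

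The genome sequence around the start sites of these genes is shown because interferon-activated factors are known to bind motifs there. Promoter windows from RefSeq (GRCh38.p14), from 250 bases before to 50 bases after the start site, were found for 39 of the 45 genes. They were searched on both strands for the core of the interferon-stimulated response element (ISRE, GAAANNGAAA), bound by factors of the IRF family, and for the gamma-activated site (GAS, TTCNNNGAA), another element of interferon-responsive promoters. Another motif was the antioxidant response element (ARE, TGACNNNGC), bound by NRF factors, among them NFE2L1, which drives proteasome genes. In the stretches printed here, from 80 bases before to 20 bases after the start site, capitals mark whole matches of the ISRE core or GAS, and no whole ARE match fell inside. A run of TTTC letters is an ISRE core read on the opposite strand. In these stretches 0 matches of different motifs overlapped. PSMB8 has more than 1 start site, and the window holding a match is shown. PSMB9 is given as the inducible gene without an ISRE core, PSMB4 as a constitutive subunit with one, and PSMC4 as the gene with the lowest difference.
PSME1, chr14:24136114-24136213, plus strand: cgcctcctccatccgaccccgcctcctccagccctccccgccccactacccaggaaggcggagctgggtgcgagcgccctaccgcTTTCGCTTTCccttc
PSME2, chr14:24146591-24146690, minus strand: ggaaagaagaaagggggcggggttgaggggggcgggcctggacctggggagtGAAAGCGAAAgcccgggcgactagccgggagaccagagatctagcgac
PSMB8, chr6:32844028-32844127, minus strand: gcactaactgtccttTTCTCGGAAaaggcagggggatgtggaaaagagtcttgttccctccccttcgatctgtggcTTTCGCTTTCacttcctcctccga
PSMB10, chr16:67936831-67936930, minus strand: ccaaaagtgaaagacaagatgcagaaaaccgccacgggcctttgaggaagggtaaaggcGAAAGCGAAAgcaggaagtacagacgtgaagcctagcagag
PSMB9, chr6:32854112-32854211, plus strand: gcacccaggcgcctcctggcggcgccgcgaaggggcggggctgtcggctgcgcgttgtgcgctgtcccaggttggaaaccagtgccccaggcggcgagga
PSMB4, chr1:151399493-151399592, plus strand: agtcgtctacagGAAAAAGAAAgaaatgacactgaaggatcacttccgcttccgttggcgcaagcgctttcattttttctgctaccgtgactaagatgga
PSMC4, chr19:39971085-39971184, plus strand: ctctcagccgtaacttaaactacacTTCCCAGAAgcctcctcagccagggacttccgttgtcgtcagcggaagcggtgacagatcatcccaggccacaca

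The ISRE core was present in 7 of the 39 promoters, or 17.9%, against 4.38% of the 27305 genes with a promoter window. Among the 5 promoters of the inducible subunits and PA28, 4 held it. Those 5 genes were grouped because interferon induces them, so this share follows from the grouping and is no result of the arrays. In PSME1, PSME2, PSMB8 and PSMB10 the matched letters were the same, GAAAGCGAAA read along either strand, which occurred in 34 of the 27305 genes, or 0.125%. These letters were singled out after the matches had been seen. The match and the values did not go together in every gene. PSMB10 carried it and was equal on both arrays, and PSMB9 had no ISRE core in its window and was higher. PSMG4 held the same letters but lay below the signal limit, and PSMB4 and PSMA4 held another ISRE core and were equal.

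The GAS motif was found in 8 of the 39 promoters, or 20.5%, against 9.38% of all genes, and the ARE in 14, or 35.9%, against 16.1%. Among the 13 promoters of 19S subunits in the table, 4 held an ARE, 3 a GAS and 0 an ISRE core. Among the 5 promoters of the inducible subunits and PA28, 3 held an ARE (PSMB9, PSME1 and PSME2) and 1 a GAS (PSMB8). The ARE was thus not particular to the 19S subunits. PSMC4 and PSMD3 held both an ARE and a GAS. The CCAAT box, a common promoter element, was present in 46.2% of the 39 and in 39.7% of all genes. A match describes the letters in a window and not a bound site.

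**Figure D2:**
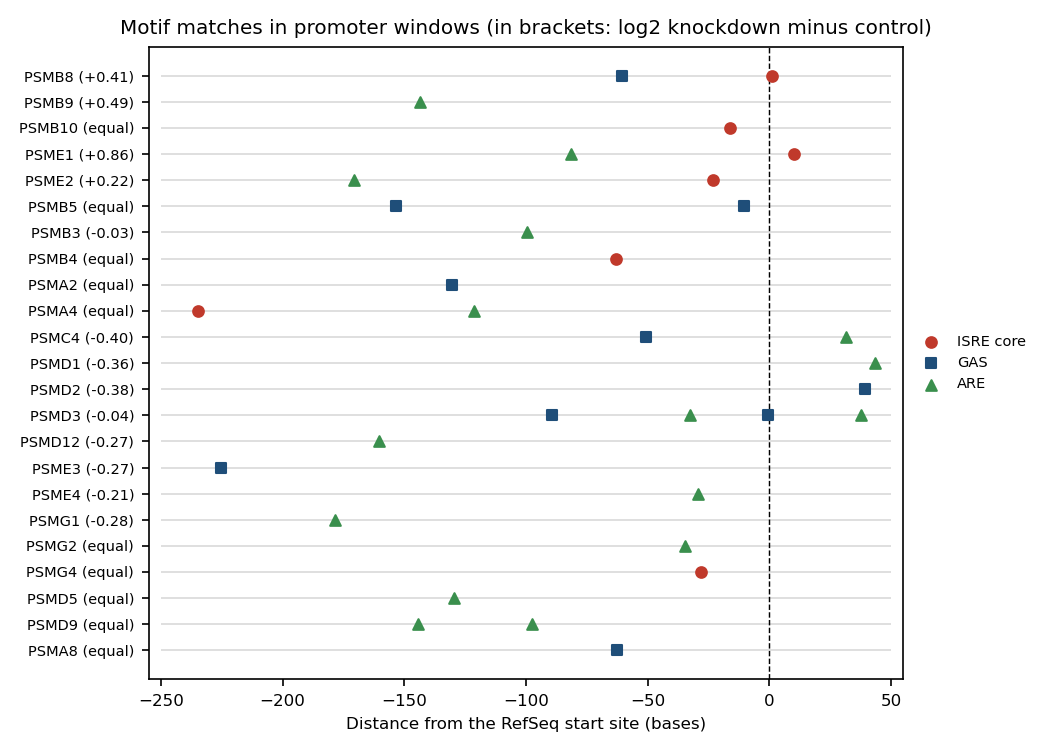
Position of the middle of ISRE core (circles), GAS (squares) and ARE (triangles) matches relative to the RefSeq start site, in bases, for the proteasome genes with at least 1 match. The brackets give the log2 difference of knockdown minus control. The ISRE cores of PSME1, PSME2, PSMB8 and PSMB10 lie within 28 bases of the start site, while no 19S subunit has one.

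The constitutive catalytic subunits, whose places the inducible ones take in new particles, were not higher. PSMB5, which carries the chymotrypsin-like site, read 9.98 on both arrays. PSMB6, with the caspase-like site, read 12.37 in control and 12.19 in knockdown cells, a difference of -0.18. PSMB7, with the trypsin-like site, read 13.30 and 13.25, a difference of -0.05. In each of the pairs PSMB8 with PSMB5 and PSMB9 with PSMB6 the inducible gene had the higher difference, by values of 0.41 against 0 and 0.49 against -0.18. PSMB10 and PSMB7 differed by 0 and -0.05.

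The structural rings of the 20S core were mostly equal, as were all genes past the signal limit. In the alpha ring, which gates entry to the barrel, PSMA1 to PSMA6 were equal on both arrays, at values from 9.38 for PSMA5 to 12.68 for PSMA4. PSMA7 was the exception, with 10.54 and 10.33, a difference of -0.21. Among the beta subunits without a catalytic site, PSMB1, PSMB2 and PSMB4 were equal, at 10.14, 8.53 and 9.12, and PSMB3 read 14.65 and 14.62. Over the 14 constitutive core subunits, 4 were lower, 10 equal and 0 higher. The equal share of 71.4% was near the 76% of all genes, and 28.6% were lower beside 12.1% of all genes. PSMA8 and PSMB11, known from testis and thymus, read 4.03 and 3.74 on both arrays, within the range of the background rows.

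Most 19S subunits were lower on the knockdown array, by small amounts. Of 14 measured, 11 were lower, 3 equal and 0 higher, with a median of -0.20, and 0 passed 1.5-fold. The lower share was 78.6%, beside 12.1% of all genes past the signal limit. Only 0.477% of all genes were lower by more than 1.5-fold, so 0 of 14 past that limit is no result about these subunits. All 5 measured ATPases of the base, which unfold substrates, were lower. PSMC4 had the lowest difference of any proteasome gene, with 13.82 in control and 13.42 in knockdown cells, a difference of -0.40 or 0.759-fold. It ranked 133rd from the bottom of 11323 genes. PSMC3 read 12.44 and 12.15, PSMC2 13.34 and 13.11, PSMC6 9.48 and 9.30, and PSMC1 12.38 and 12.28. Their differences were -0.30, -0.23, -0.18 and -0.10.

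Of the 9 non-ATPase subunits, 6 were lower and 3 equal. PSMD2, a large scaffold subunit of the base, read 12.24 and 11.86, a difference of -0.38. PSMD1, the other such scaffold, read 12.36 and 11.999, a difference of -0.36. Next came the lid subunits PSMD12, with 11.08 and 10.81, and PSMD11, with 12.25 and 11.999, differences of -0.27 and -0.25. The lid subunits PSMD6 and PSMD3 differed by -0.05 and -0.04. The equal ones were PSMD14, the deubiquitinase of the lid, at 12.41, PSMD8, also of the lid, at 11.70, and PSMD4, a ubiquitin receptor, at 8.78.

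**Figure D3:**
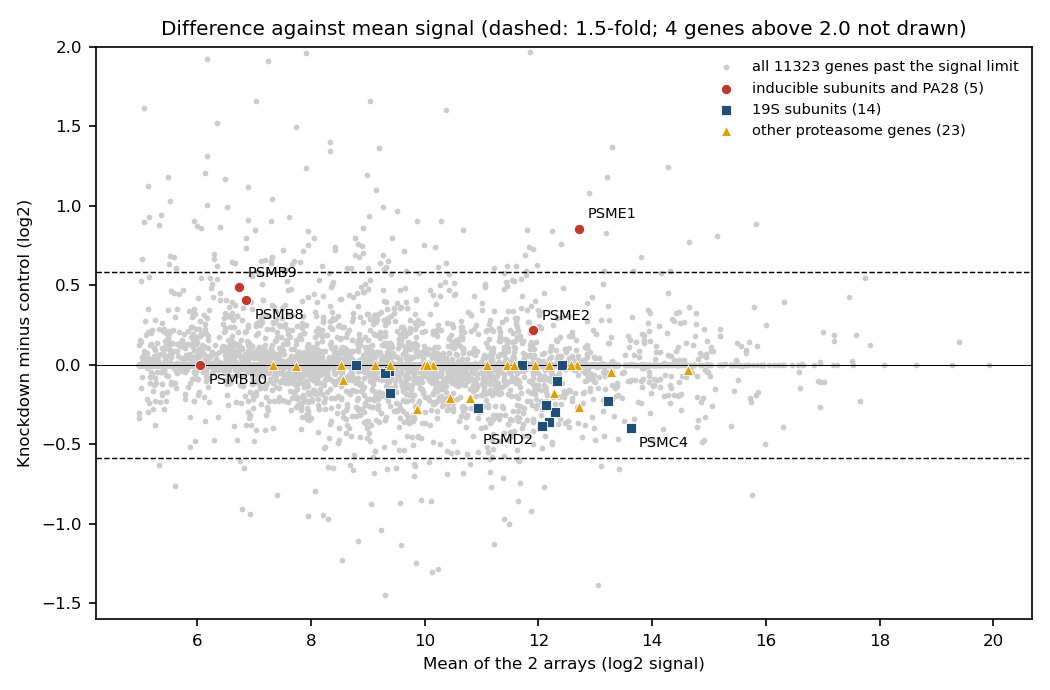
Knockdown minus control (log2, vertical axis) against the mean log2 signal of the 2 arrays for all 11323 genes past the signal limit (grey), with the inducible subunits and PA28 (circles), 19S subunits (squares) and other proteasome genes (triangles) drawn over them. 4 genes above 2 are not drawn. The dashed lines mark 1.5-fold. PSME1 at 0.86 is the only proteasome gene outside them, and the lowest is PSMC4 at -0.40.

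Over all genes, equal values became rarer with rising signal, from 86% at a mean below 8 to 47.7% at 12 to 14, so the counts were also set beside genes of like signal. At a mean of 12 to 14, 31.2% of 503 genes were lower and 21.1% higher. Of the 15 proteasome genes in that range 10 were lower, and of the 8 19S subunits 7 were lower. At a mean of 8 to 10, 15.3% of 2787 genes were lower, against 5 of 10 proteasome genes and 3 of 4 19S subunits. At 10 to 12 the share was 25.6% of 1531 genes, and 3 of 11 proteasome genes were lower. Another 16.3% were higher there, against 1 of 11 proteasome genes, PSME2. At a mean of 4.97 to 8, the range of PSMB8, PSMB9 and PSMB10, 8.55% of 6292 genes were higher and 5.4% lower. Beyond 1.5-fold, 61 genes in that range were higher and 8 lower. Of the 5 proteasome genes there, 2 were higher, PSMB8 and PSMB9, and 1 lower. The fold sizes were small throughout. With a limit of 0.1 on the log2 scale, 13 proteasome genes were lower and 4 higher, beside 6.62% and 6.76% of all genes at any signal. Among genes of like signal above a mean of 8, the shares lower by this limit were larger. For a mean of 12 to 14 the share was 18.5%, and 8 of 15 proteasome genes were lower. For 10 to 12 it was 15.3%, with 3 of 11. At 8 to 10 it was 8.29%, with 2 of 10. At 4.97 to 8 it was smaller, at 2.42%, with 0 of 5, while 4.66% were higher by this limit, with 2 of 5.

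**Figure D4:**
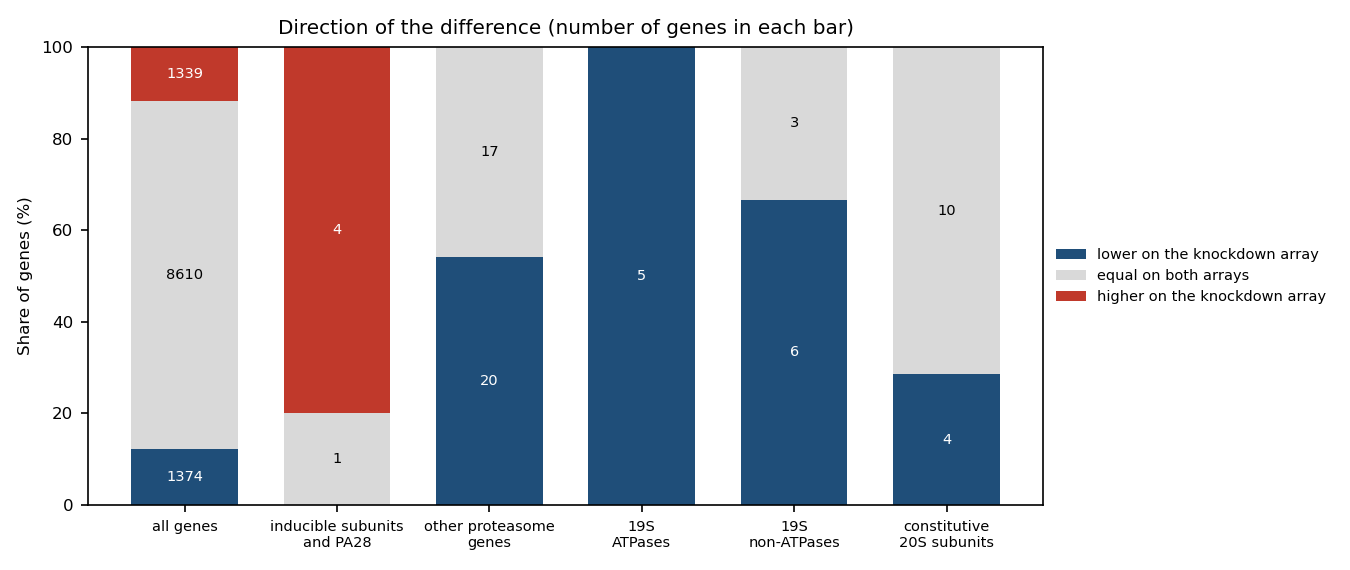
Share of genes (%) that were lower (bottom), equal (middle) or higher (top) on the knockdown array, for all 11323 genes past the signal limit and for groups of proteasome genes, with the number of genes written in each bar. All 5 ATPases of the 19S are in the lower class and 4 of the 5 inducible genes in the higher class, while 10 of the 14 constitutive core subunits are equal.

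The activators outside PA28 were lower on the knockdown array. PSME3, which forms a nuclear relative of PA28, read 12.85 in control and 12.58 in knockdown cells, a difference of -0.27. PSME4, a large nuclear activator, read 10.89 and 10.69, a difference of -0.21. PSMF1, described as an inhibitor of the core, differed by -0.10. Among the chaperones that assemble the core, PSMG1 read 10.003 and 9.73, a difference of -0.28. Its partner PSMG2 was equal at 11.57, PSMG3 differed by -0.005, and PSMG4 read 4.82 on both arrays. The chaperones of the 19S base, PSMD5, PSMD9 and PSMD10, were equal at 11.93, 7.34 and 11.10.

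Other genes that work with the proteasome gave mostly equal values, as did all genes past the signal limit. Of a list of 35, put together with earlier results of these arrays known, 29 were past the signal limit. Of these, 7 were lower, 21 equal and 1 higher, with a median of 0 and 0 past 1.5-fold. Over all genes, 12.1% were lower, 76% equal and 11.8% higher. USP14, a deubiquitinase that binds the 19S base, was the lowest, with 11.91 and 11.54, a difference of -0.37. UBQLN4 and RAD23B, which carry ubiquitinated proteins to the particle, differed by -0.19 and -0.17, and ADRM1, a ubiquitin receptor of the 19S, by -0.10. NFE2L3, a relative of NFE2L1, was the 1 higher gene, with 0.09. NFE2L1 itself was equal at 9.77, and so was POMP, the chaperone that matures the core and its inducible form, at 12.69.

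Among genes of interferon signalling and of peptide loading, the higher values lay mostly in peptide loading. Of 21 listed, 17 were past the signal limit, and 6 were higher, 10 equal and 1 lower, with 2 past 1.5-fold and a median of 0. This list too was made with earlier results known, and its higher members are no independent support. Divided by function after the values had been seen, 5 of 7 genes of peptide loading and trimming were higher and 2 equal, while of 10 signalling genes and regulators 1 was higher, 8 equal and 1 lower. The higher one was IFNGR1, a chain of the interferon gamma receptor, with 0.09, and the lower one SOCS3, an inhibitor of cytokine signalling, with -0.13. Both genes past 1.5-fold act on MHC class I, namely B2M with 12.35 and 13.43, a difference of 1.08, and the peptide-trimming ERAP2 with 8.50 and 9.18, a difference of 0.68. ERAP1, its relative, differed by 0.46 and TAPBPL, which edits peptides, by 0.31. TAP1, the peptide transporter gene that lies beside PSMB9 and PSMB8 on chromosome 6, read 6.79 and 6.94, a difference of 0.15. TAP2, on the other side of PSMB8, was equal at 7.17. IRF1 and NLRC5, which activate these genes, were equal at 5.73 and 5.68, both within the range of the background rows.

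Blood cells carry the inducible subunits without stimulation, so their markers were read on the same arrays. Of 12 leukocyte markers, 11 had a row of their own and all 11 were equal on both arrays, at 3.41 to 5.21, within the range of the background rows. Their summed log2 signal was 44.8 on each array, which follows from the equal pairs and is not a measured equality. PTPRC, which defines leukocytes, read 3.69, and the T cell gene CD3E read 4.68.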

How the data were processed

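Total RNA was hybridized to 1 Affymetrix Human Transcriptome Array 2.0 per group. Per the labels, the authors made the deposited log2 values with RMA, a method of background correction, quantile normalization and probe summarization. Its version: not given in the sources used here. Values reach 19.93, above the 16 that a 16-bit scanner allows, so folds hold on this scale only.

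Of 70523 rows, 23781 have exactly 1 gene symbol in the platform annotation. Symbols were updated through gene IDs to RefSeq (21497 rows matched), and each gene was represented by its row with the highest mean. The limit of 1.5-fold follows the study, and its methods name 2-fold. Equal means within 1e-09. Every gene of the rule is described by role, and further pathway genes by counts with the strongest differences. Members and lists were chosen with earlier results of these data known, and the 0.1 limit and the closer reading of the ISRE letters after seeing values. Alternatives were 2-fold, median centring, a second quantile normalization, loess (span 0.3), the mean over rows, and 4 changes of filter or rows. The procedure was tested on simulated data, a copy of the control array with known shifts and no noise. That checks the counting and not how reliable small differences are. Python 3.11.15, pandas 2.3.3, NumPy 2.4.6, statsmodels 0.14.6 and matplotlib 3.10.9 were used.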

Additional observations from a re-analysis of the deposited data

Results flagged for a closer look

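The row of PSME2P2, a pseudogene of PSME2 that the choice of members left out, was higher on the knockdown array by 0.16 (0.1618), from 11.59 to 11.75. How far its probes are shared with PSME2 was not tested. It was noted because it is a difference in a row that no comparison used. The other rows with a matching symbol that were left out, PSME3IP1, PSMA3-AS1, PSMD5-AS1, PSMD6-AS2 and PSMG3-AS1, were equal on both arrays.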

How the results depend on the processing

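With 1 array per group, no replicate could be left out and no value has an error. No paired analysis was possible because each group holds 1 array. Under all 9 alternatives the difference of PSME1 was 0.85 to 0.86 and that of PSMC4 was -0.40. Both genes have 1 row and lie above every filter, so changes of limit, filter or rows could not move these values. Median centring gave 0.851 and -0.4032, and the second quantile normalization 0.852 and -0.3959. Loess left every count, median and value examined unchanged. With 76% of genes equal, its fitted trend stays near 0, so it could not be expected to move them. Asking for 2-fold left 0 proteasome genes past the limit, and 33 higher and 11 lower genes over all. Median centring moved every equal gene by -0.0049, so 38 proteasome genes were lower instead of 20. A second quantile normalization gave 9 higher and 33 lower of the 42 proteasome genes, so no pair stayed equal. It moved the median over all genes to -0.018, and 4 proteasome genes were higher by more than 0.1. Why the equal pairs went in both directions was not tested. Beyond 0.1 on the log2 scale, the lower proteasome genes numbered 13 to 15 under every alternative. The filter at the 75th percentile kept 2 of the 5 inducible genes, PSME1 and PSME2, so the higher proteasome genes numbered 2, both past 0.1, the inducible median was 0.54 (0.5377), and 76 genes over all were higher by more than 1.5-fold. Leaving out rows on alternative haplotypes, chosen after seeing the data, changed no count of proteasome genes.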
